A study of Arabidopsis thaliana with 10 samples.

Results

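The 7 genes described here encode the enzymes that make brassinosteroids in Arabidopsis thaliana: the steroid reductase gene DET2 and the 6 cytochrome P450 genes DWF4, CPD, ROT3, CYP90D1, BR6OX1 and BR6OX2. They were chosen by locus identifier from the 32753 loci of the table, the values of all transcripts of a locus were summed, and all 7 passed the filter on low values. RNA abundance was measured by sequencing polyA RNA of whole seedlings in 10 libraries that form 5 groups of 2. The seedlings belonged to the wild-type accession Col-0 or to the line RiD-BRI1/BAK1, here called RiD. Its name holds those of BRI1, the receptor kinase for brassinosteroids, and BAK1, the kinase that acts with it at the cell surface. The groups were RiD with 100 nM rapamycin, RiD with 100 nM brassinolide, RiD mock, Col-0 with 100 nM rapamycin, and Col-0 mock. Every group, mock included, grew in darkness for 5 days with 2 µM PPZ in the medium, which the labels do not spell out and which in brassinosteroid work usually stands for propiconazole, a triazole that blocks brassinosteroid synthesis. The labels do not describe the construct of the RiD line, its promoter or how many independent lines were used. No label states that replicate libraries came from separate plants or cultures, so a p-value here reflects only how far replicate libraries spread, which may be technical. The title of the series names its question: whether chemistry can control the signalling of a plant membrane receptor kinase.

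Brassinosteroids are steroid hormones that promote cell elongation, and seedlings that cannot make or sense them stay short in the dark. They are built from the sterol campesterol. DET2 reduces a double bond of the steroid ring, DWF4 adds the first hydroxyl group of the side chain and is regarded as the rate-limiting step, CPD oxidises the first ring, ROT3 and CYP90D1 add the next side-chain hydroxyl group, and BR6OX1 and BR6OX2 oxidise the second ring to castasterone, with BR6OX2 also making brassinolide. The hormone binds BRI1, which then pairs with BAK1, and the signal ends in the transcription factors BZR1 and BES1. These factors are known to bind the sequence CGTGCG or CGTGTG, called the brassinosteroid response element, and the E-box, and to repress several of the synthesis genes, which closes a feedback loop. Rapamycin is a macrolide that joins proteins carrying an FKBP and an FRB domain and is a common tool for bringing proteins together on demand.

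The values are the authors' normalized counts, given below for libraries 1 and 2 of each group in that order. The libraries summed to between 23244655 and 26987555 normalized counts. The smallest step between values put the depth of number 1 libraries at 18.4 to 19.6 M reads and that of number 2 libraries at 29.2 to 33.9 M, and 3 reads corresponded to 2.18 to 4.17 normalized counts. Deviations from the group means correlated between libraries of the same number in all 10 pairs of groups, at r = 0.32 to 0.51 across loci. BAK1 was at 4908 and 5116 normalized counts in the RiD mock libraries, against 1899 and 2104 in Col-0 mock, and BRI1 at 8509 and 12206 in RiD mock, against 3420 and 5625 in Col-0 mock, each pair of values from low to high. The differences, of 1.33 and 1.22 on the log2 scale, had adjusted p-values of 0.102 and 1 by limma, and of 2.32e-06 and 6.20e-05 with the replicate number as a block. Both genes had an unadjusted p under 0.05 by limma in this comparison, as had 695 of all loci tested. In RiD rapamycin against Col-0 rapamycin both were higher at an adjusted p under 0.05 by limma, with a median log2 difference of 1.29. Of all loci tested, 14.6% were higher at that threshold. Whether reads of the construct count towards the loci of BRI1 and BAK1 was not stated in the labels.

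In RiD seedlings with rapamycin, the 6 P450 genes fell and DET2 did not pass the test. Changes are differences of log2(normalized counts + 1) from a limma model over all 10 libraries, each with its standard error, and an adjusted p, by the Benjamini-Hochberg method over the 23285 loci tested, of under 0.05 counts as a call. Of all loci tested, 22.0% were called between RiD rapamycin and RiD mock and 9.72% were called lower, beside the 6 of 7 genes here. The genes sat on 4 chromosomes of the TAIR10.1 reference, and their fitted falls ran over a wide range, with ROT3 and BR6OX2 at its ends. Seedlings were sequenced whole, so fewer cells of a type and less RNA per cell cannot be told apart.

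DET2 (AT2G38050, chr2:15921136-15922321, minus strand, 2 exons) stood at 469 and 343 normalized counts in RiD rapamycin, 508 and 426 in RiD brassinolide, 517 and 335 in RiD mock, 478 and 429 in Col-0 rapamycin and 435 and 434 in Col-0 mock. The groups overlapped, and the 2 RiD mock libraries lay farther apart than any pair of group means. The change in RiD rapamycin against RiD mock was -0.05 ± 0.24 (SE) on the log2 scale, with a 95% confidence interval of -0.61 to 0.50 and an adjusted p of 0.909 by limma. In RiD brassinolide against RiD mock it was 0.16 ± 0.24, with an interval of -0.39 to 0.72 and an adjusted p of 0.798 by limma. DET2 is the only member that is not a P450, and it shares 35 bases with AT2G38040 on the other strand, which averaged 7069 normalized counts. The library kit marks the strand, but the labels do not state whether counting used it.

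DWF4 (AT3G50660, chr3:18813949-18817405, minus strand, 8 exons) stood at 22.3 and 26.8 normalized counts in RiD rapamycin, against 2903.0 and 2903.4 in RiD mock. It was at 1233 and 1204 in RiD brassinolide, 3060 and 2741 in Col-0 rapamycin, and 3293 and 2705 in Col-0 mock. Both RiD rapamycin libraries lay far below all 8 others, both brassinolide libraries lay between, and the mock and Col-0 groups overlapped. The fall in RiD rapamycin against RiD mock was -6.84 ± 0.16 (SE) on the log2 scale (adjusted p = 7.11e-07 by limma), and the mean was 0.844% of that in RiD mock.

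CPD (AT5G05690, chr5:1702640-1706948, minus strand, 8 exons), the most abundant member, stood at 1135 and 1261 normalized counts in RiD rapamycin, against 15771 and 18307 in RiD mock. It was at 6403 and 8095 in RiD brassinolide, 15462 and 15407 in Col-0 rapamycin, and 14540 and 16889 in Col-0 mock. As for DWF4, both RiD rapamycin libraries were lowest and both RiD brassinolide libraries lay between them and the other 6, with a smaller distance. The fall in RiD rapamycin against RiD mock was -3.83 ± 0.17 (SE) on the log2 scale (adjusted p = 1.64e-05 by limma), to 7.03% of the RiD mock mean. Of its 3 annotated transcripts the first carried nearly all of the signal: the other 2 reached at most 223 and 104 normalized counts in any library and were at 0 in several, and the first alone changed by -3.82 ± 0.16 (adjusted p = 0.000139 by limma over 29542 transcripts). CPD shares 20 bases with AT5G05680 on the other strand.

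The later pair of side-chain hydroxylases, ROT3 and CYP90D1, are known to overlap in function, and ROT3 had the smallest fall of the P450 genes while CYP90D1 was left with 1 read. ROT3 (AT4G36380, chr4:17187528-17192507, minus strand, 9 exons) stood at 443 and 695 normalized counts in RiD rapamycin, against 1600 and 2125 in RiD mock. It was at 1078 and 1396 in RiD brassinolide, 1495 and 2029 in Col-0 rapamycin, and 1726 and 2185 in Col-0 mock. In every group the library numbered 2 was the higher, and both RiD rapamycin libraries lay below the 8 others. The fall in RiD rapamycin against RiD mock was -1.73 ± 0.28 (SE) on the log2 scale (adjusted p = 0.00354 by limma), to 30.5% of the RiD mock mean, and the differences were -1.85 between the libraries numbered 1 and -1.61 between those numbered 2. ROT3 shares 83 bases with AT4G36370, which was at 0 in all libraries.

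CYP90D1 (AT3G13730, chr3:4497893-4500920, minus strand, 7 exons), the least abundant member, stood at 1.39 and 0 normalized counts in RiD rapamycin, or 1 read in both libraries together, against 188 and 261 in RiD mock. It was at 56.7 and 104 in RiD brassinolide, 171 and 219 in Col-0 rapamycin, and 194 and 243 in Col-0 mock. The fitted change in RiD rapamycin against RiD mock was -7.17 ± 0.45 (SE) on the log2 scale (adjusted p = 4.86e-05 by limma), a value that depends on the added 1 at so low a level. By counting alone, 1 read against 472 gave a ratio of 472-fold lower in RiD rapamycin, with a 95% interval of 84.4 to 18692. The interval covers counting error only, and ratio and interval are scaled by the estimated value of 1 read in each library.

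The last pair are the ring oxidases. BR6OX1 (AT5G38970, chr5:15594674-15598089, minus strand, 9 exons) stood at 1.39 and 1.53 normalized counts in RiD rapamycin, or 3 reads in all, against 397 and 393 in RiD mock. It was at 241 and 215 in RiD brassinolide, 471 and 449 in Col-0 rapamycin, and 423 and 419 in Col-0 mock. Those 3 reads were assigned to the last of its 3 transcripts, while the first, which carried 91.0% to 100% of the gene's signal in the RiD brassinolide and RiD mock libraries, was at 0 in both RiD rapamycin libraries. The fitted change in RiD rapamycin against RiD mock was -7.33 ± 0.16 (SE) on the log2 scale (adjusted p = 7.11e-07 by limma). This value, too, depends on the added 1, and over 20 other settings of the fit it ran from -8.55 to -5.95. By counting alone 3 reads against 799 gave a ratio of 266-fold lower in RiD rapamycin (95% interval 90.9 to 1295, counting error only).

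BR6OX2 (AT3G30180, chr3:11810726-11813883, plus strand, 9 exons), whose enzyme carries castasterone on to brassinolide, stood at 26.4 and 17.6 normalized counts in RiD rapamycin, against 7004 and 7924 in RiD mock. It was at 2865 and 3008 in RiD brassinolide, 7399 and 6039 in Col-0 rapamycin, and 8197 and 6802 in Col-0 mock. The fall in RiD rapamycin against RiD mock was -8.37 ± 0.21 (SE) on the log2 scale (adjusted p = 8.83e-07 by limma), to 0.295% of the RiD mock mean. By counting alone 42 reads against 15330 gave a ratio of 365-fold lower in RiD rapamycin (95% interval 270 to 507, counting error only). The counting intervals of BR6OX1, BR6OX2 and CYP90D1 overlapped, so the order of these 3 falls is not fixed by the data. The interval of DWF4, at 87.6 to 155, overlapped those of BR6OX1 and CYP90D1, so its place beside these genes is not fixed either. Between the libraries numbered 1 the difference of BR6OX2 was -8.00, and between those numbered 2 it was -8.74.

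**Figure D1:**
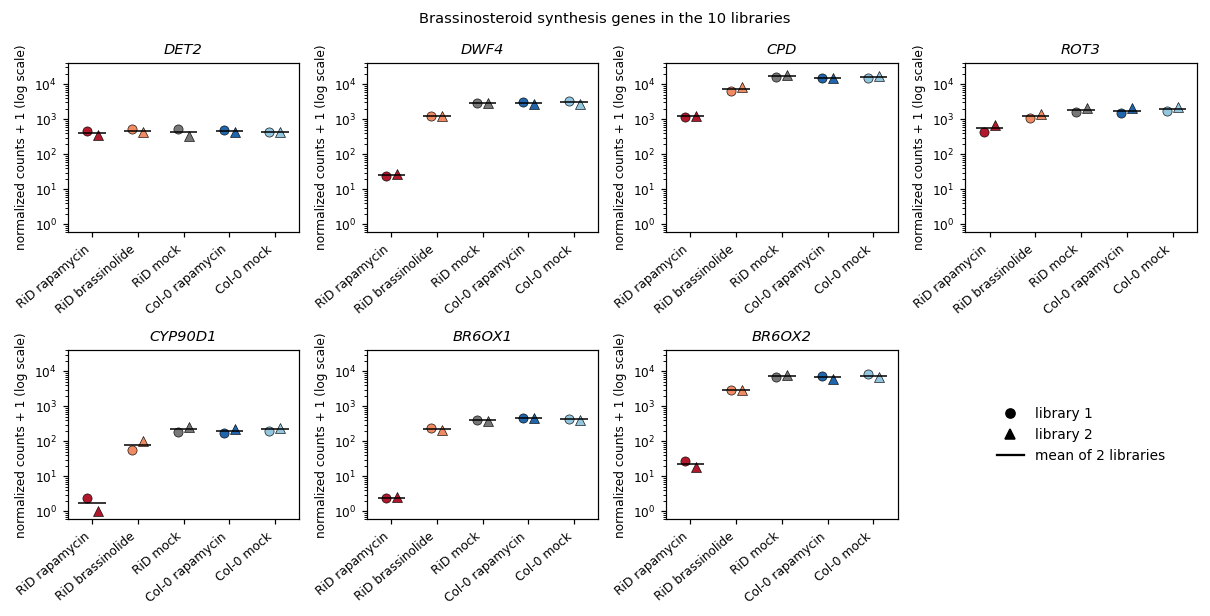
Normalized counts + 1 (vertical log axis) of the 7 genes in each library, with the groups along the horizontal axis, circles for library 1, triangles for library 2 and a line at the group mean of 2 libraries. The RiD rapamycin points of the 6 P450 genes lie below all others, those of BR6OX1 and CYP90D1 rest on 3 reads and 1 read, and DET2 is at 335 to 517 normalized counts in every library.

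In RiD with brassinolide, 4 of the 6 P450 genes were called lower by limma, namely DWF4, CPD, BR6OX1 and BR6OX2. Of all loci tested, 6.76% were called between RiD brassinolide and RiD mock and 2.13% were called lower. With the replicate number as a block all 6 P450 genes were called lower, as were 12.8% of all loci. The mean in RiD brassinolide was 42.0% of that in RiD mock for DWF4, 42.5% for CPD, 57.7% for BR6OX1, 39.3% for BR6OX2, 66.4% for ROT3 and 35.7% for CYP90D1. For each of these 6 genes both RiD brassinolide libraries lay below both RiD mock libraries, as did 22.8% of the loci tested.

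On the log2 scale the changes in RiD brassinolide against RiD mock by limma were -1.25 ± 0.16 (SE) for DWF4 (adjusted p = 0.00356), -1.24 ± 0.17 for CPD (adjusted p = 0.00488) and -1.34 ± 0.21 for BR6OX2 (adjusted p = 0.00910). For BR6OX1 the change was -0.79 ± 0.16 (adjusted p = 0.0262 by limma). The call of BR6OX2 was lost without RiD mock 2 or RiD brassinolide 1 (adjusted p = 0.0607 and 0.0817 by limma), and that of BR6OX1 without any 1 of the Col-0 mock, RiD mock and RiD brassinolide libraries (adjusted p = 0.0552 to 0.143 by limma). With the replicate number as a block, their adjusted p-values were 2.73e-05 and 0.00189.

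ROT3 and CYP90D1 were not called in this comparison. The difference of ROT3 was -0.59 ± 0.28 (SE) on the log2 scale (95% confidence interval -1.23 to 0.06, adjusted p = 0.300 by limma), and that of CYP90D1 was -1.52 ± 0.45 (interval -2.56 to -0.48, adjusted p = 0.0973 by limma). With the replicate number as a block both were called, at adjusted p = 0.000396 for ROT3 and 0.0157 for CYP90D1, and 27.6% of all loci tested were. Within the numbers, ROT3 differed by -0.57 in the libraries numbered 1 and by -0.61 in those numbered 2, and CYP90D1 by -1.72 and -1.33. CYP90D1 was also called without RiD rapamycin 1 or RiD rapamycin 2 (adjusted p = 0.0483 and 0.0475 by limma).

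**Figure D2:**
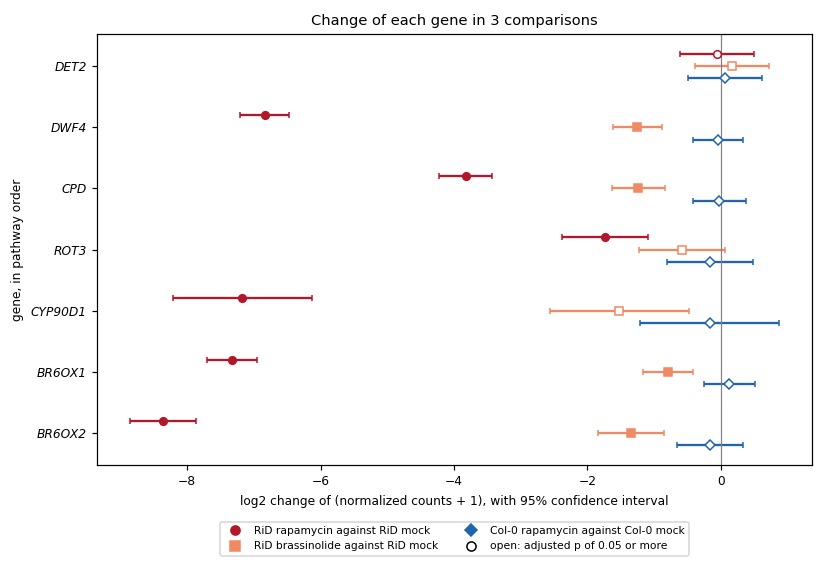
Change of each gene on the log2 scale of normalized counts + 1 (horizontal axis, with 95% confidence intervals from limma) in RiD rapamycin against RiD mock, RiD brassinolide against RiD mock and Col-0 rapamycin against Col-0 mock, with the genes down the vertical axis in pathway order. The rapamycin change in RiD runs from -8.37 for BR6OX2 to -1.73 for ROT3 among the P450 genes, the brassinolide change in RiD from -1.52 to -0.59, and the open symbols, adjusted p of 0.05 or more, include all 7 genes in Col-0.

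Set directly against RiD brassinolide at the same 100 nM, RiD rapamycin was lower for 5 of the 7 genes, while 2.56% of all loci tested were called in this comparison and 1.53% were called lower. The differences by limma were -5.58 ± 0.16 (SE) on the log2 scale for DWF4 (adjusted p = 3.72e-06), -2.59 ± 0.17 for CPD (adjusted p = 0.000327) and -5.65 ± 0.45 for CYP90D1 (adjusted p = 0.000678). For BR6OX1 and BR6OX2 they were -6.54 ± 0.16 and -7.02 ± 0.21 (adjusted p = 2.50e-06 and 4.86e-06 by limma). The fitted values of BR6OX1 and CYP90D1 depend on the added 1. For ROT3 the difference was -1.14 ± 0.28 (interval -1.79 to -0.50, adjusted p = 0.0824 by limma). With the replicate number as a block ROT3 was called as well (adjusted p = 1.48e-06), as were 20.0% of all loci tested. DET2 differed by -0.22 ± 0.24 (interval -0.77 to 0.34, adjusted p = 0.801 by limma).

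In Col-0 none of the 7 genes was called between rapamycin and mock, and limma called 0% of all loci tested, with 557 of 23285 at an unadjusted p under 0.05. Of the 7 genes 0 were at such an unadjusted p. The differences ran from -0.17 for CYP90D1 to 0.13 for BR6OX1 on the log2 scale. The intervals were narrowest for DWF4, at -0.41 to 0.32, and widest for CYP90D1, at -1.21 to 0.87. With the replicate number as a block 43 loci (0.185%) were called, none of them a member. Between RiD mock and Col-0 mock the differences of the 7 genes ran from -0.09 for BR6OX1 to 0.12 for CPD, and limma called 0 members and 0% of all loci, with 695 loci and 0 members at an unadjusted p under 0.05, while the block called 83 loci (0.356%) and no member.

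The difference between the lines in their response to rapamycin was itself tested. Of all loci tested, 10.1% were called for it and 3.56% were called lower in RiD, beside 6 of the 7 genes here. The response of RiD minus that of Col-0 by limma was -6.79 ± 0.23 (SE) on the log2 scale for DWF4 (adjusted p = 8.95e-06), -3.80 ± 0.24 for CPD (adjusted p = 0.000240), -7.00 ± 0.64 for CYP90D1 (adjusted p = 0.000696), -7.46 ± 0.23 for BR6OX1 (adjusted p = 8.95e-06) and -8.21 ± 0.30 for BR6OX2 (adjusted p = 1.70e-05). For ROT3 it was -1.58 ± 0.40 with an adjusted p of 0.0430 by limma, close to the threshold. That call was lost without any 1 of 9 of the 10 libraries, all but RiD rapamycin 2 (adjusted p = 0.0600 to 0.147 by limma), and it was held by the block (adjusted p = 7.87e-07). For DET2 the difference was -0.11 ± 0.34 (interval -0.90 to 0.67). The values of BR6OX1 and CYP90D1 depend on the added 1 here as well. RiD rapamycin set against Col-0 rapamycin, with 26.4% of all loci called and 11.8% called lower, was lower for the same 6 P450 genes, by -1.65 for ROT3 to -8.21 for BR6OX2.

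Levels can be compared between genes only per length, here as normalized counts per kb of transcript. In RiD mock, CPD was at 8843 ± 935 (SD, n = 2) per kb, BR6OX2 at 3902 ± 340, DWF4 at 1388 ± 0.10, ROT3 at 801 ± 160, DET2 at 387 ± 117, BR6OX1 at 199.9 ± 1.3 and CYP90D1 at 112 ± 26. The order was the same in RiD brassinolide, Col-0 rapamycin and Col-0 mock, and neighbours in the order did not overlap between libraries in any of the 3 mock or Col-0 groups. In RiD brassinolide DWF4, at 583 ± 10 per kb, and ROT3, at 532 ± 97, overlapped. In RiD rapamycin the order was another: CPD came first at 622 ± 47 per kb, then DET2 at 368 ± 81 and ROT3 at 245 ± 77. DWF4, at 11.7 ± 1.5, and BR6OX2, at 11.5 ± 3.3, overlapped there, and BR6OX1 and CYP90D1 were under the level of 3 reads.

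**Figure D3:**
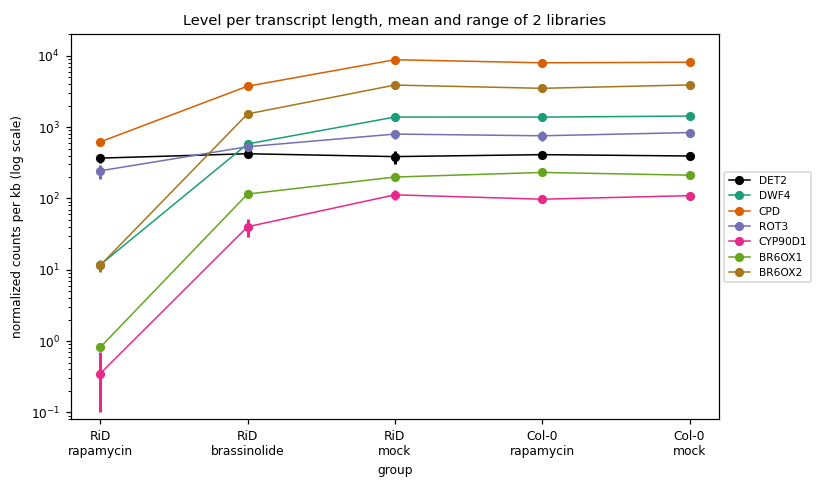
Mean normalized counts per kb of transcript (vertical log axis) of the 7 genes in the 5 groups along the horizontal axis, with vertical bars over the range of the 2 libraries. CPD is highest in every group, and DET2, at place 5 in the 4 other groups, is second in RiD rapamycin; the bar of CYP90D1 there is cut at 0.1 because 1 library is at 0.

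The letters that BZR1 and BES1 are known to bind were looked for around the 7 gene starts, since 6 of the genes moved together. The promoters were read from the RefSeq TAIR10.1 genome at its annotated gene starts, both strands were searched, and a match is a description of letters, not of binding. From 250 bases before to 50 after the start, CGTGCG or CGTGTG was in 0 of the 7 genes and in 8.19% of 27443 promoters, the G-box CACGTG was in 0 of 7 and in 7.68%, and the E-box CANNTG, which includes the G-box, was in 6 of 7 and in 61.7%. BR6OX2 was the gene without an E-box there. In a window widened after these positions were seen, from 500 before to 250 after, CGTGCG or CGTGTG was in DWF4, CPD, ROT3 and CYP90D1 and in 17.9% of promoters, CACGTG was in 0 of 7 and in 13.0%, and CANNTG was in 7 of 7 and in 90.0%. The first match of each of the 4 genes is shown in a stretch of 30 bases, 5′ to 3′ on the strand of the gene, with the response element in capitals.
DWF4: tctgtctttgacCGCACGctcgtgtagggg
CPD: gcagaaacccccCGTGTGcccactctcccc
ROT3: caacttaattacCGTGTGatacagtcaatg
CYP90D1: cacaaacccattCGTGCGtctctggctaat
The stretch of DWF4 (chr3:18817846-18817875, minus strand) holds CGTGCG on the opposite strand, with its first base 458 bases before the start, and that of ROT3 (chr4:17192903-17192932, minus strand) holds CGTGTG 413 bases before it. The matches of CPD (chr5:1706769-1706798, minus strand), at base 163, and CYP90D1 (chr3:4500852-4500881, minus strand), at base 52, lie after the annotated start, and CYP90D1 has another at base 239. BR6OX1, BR6OX2 and DET2 had no CGTGCG or CGTGTG in either window.

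The 250 bases before the start of BR6OX2 and of DET2 are shown because they belong to the member without an E-box around its start and the member with no call, with each E-box that lies whole within them in capitals.
BR6OX2: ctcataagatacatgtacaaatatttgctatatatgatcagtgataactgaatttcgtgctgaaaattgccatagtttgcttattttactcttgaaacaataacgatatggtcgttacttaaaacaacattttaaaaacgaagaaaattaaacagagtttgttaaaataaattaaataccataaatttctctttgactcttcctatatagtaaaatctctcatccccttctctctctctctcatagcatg
DET2: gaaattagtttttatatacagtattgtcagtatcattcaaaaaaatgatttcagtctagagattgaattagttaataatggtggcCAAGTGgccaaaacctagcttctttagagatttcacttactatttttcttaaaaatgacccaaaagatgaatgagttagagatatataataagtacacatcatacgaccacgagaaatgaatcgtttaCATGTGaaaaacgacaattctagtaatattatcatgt
The stretch of BR6OX2 (chr3:11810476-11810725, plus strand) has no E-box, and that of DET2 (chr2:15922322-15922571, minus strand) has 2, at 165 and 37 bases before the start. Another E-box of DET2 begins 5 bases before the start and crosses it. DET2 was the only gene not called, so these letters cannot tell whether a motif goes with the falls.

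**Figure D4:**
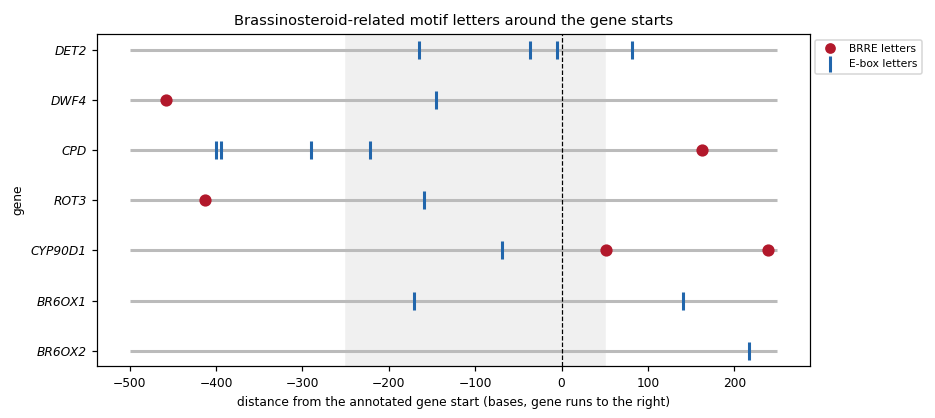
Distance of each match from the annotated gene start (horizontal axis, bases, the gene running to the right) for the 7 genes down the vertical axis, with circles for CGTGCG or CGTGTG, bars for CANNTG and a shaded band from 250 before to 50 after the start. Circles stand in DWF4, CPD, ROT3 and CYP90D1, all outside the band, with that of CYP90D1 at base 52 just past its edge, and bars stand in all 7 genes.

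Most listed genes of the sterol pathway, which holds the steps before DET2, were not called without the block. Neither were most of all loci. In RiD rapamycin against RiD mock 4 of 23 sterol genes tested were called higher and 3 lower, beside 12.3% and 9.72% of all loci. The median log2 change of the 23 was -0.03, as was that of all loci tested. Without RiD mock 1 or RiD rapamycin 2, 1 was called higher and 2 lower. The calls lost there were those of HMG1 and SQE1, enzyme genes of the early pathway, at 0.71 ± 0.17 and 0.82 ± 0.17 in the full fit (adjusted p = 0.0196 and 0.0106 by limma), of FK and of AT4G22753. FK, a sterol reductase gene, was at -0.63 ± 0.18 (adjusted p = 0.0402 by limma), and that call was lost without any 1 library but RiD rapamycin 1 (adjusted p = 0.0554 to 0.219 by limma). In RiD brassinolide against RiD mock, where 4.63% of all loci were called higher and 2.13% lower, 1 was higher and 1 lower. SMO2-2, a sterol demethylation enzyme gene, stood at 98.6 and 106 normalized counts in RiD rapamycin, 339.8 and 350.4 in RiD brassinolide and 659 and 843 in RiD mock, a change by limma of -2.86 ± 0.16 (SE) in RiD rapamycin (adjusted p = 3.19e-05), and SMO2-1 changed by -1.08 ± 0.16 (adjusted p = 0.00245). CYP710A1, the P450 that leads to stigmasterol, rose to 2659 and 3174 in RiD rapamycin, against 832 and 924 in RiD mock (1.73 ± 0.18, adjusted p = 0.000417 by limma), with 2054 and 2318 in RiD brassinolide. Here and below, the values of a pair run from low to high. With the replicate number as a block 7 sterol genes were called higher and 8 lower in RiD rapamycin, as were 24.1% of all loci in each direction. AT4G22753, a sterol methyl oxidase gene, was called at 1.56 ± 0.34 (adjusted p = 0.0125 by limma), a call lost without any 1 of the RiD mock and RiD rapamycin libraries (adjusted p = 0.0501 to 0.0657 by limma).

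Among 10 genes of brassinosteroid inactivation, 3 rose and 1 fell in RiD rapamycin against RiD mock, with a median log2 change of 0.97. Shares of all loci called there were 12.3% higher and 9.72% lower. In RiD brassinolide 2 of the 10 were called higher and 0 lower, beside 4.63% and 2.13% of all loci. The number called higher fell when either RiD brassinolide library or either RiD mock library was left out. BAS1, a P450 that inactivates brassinosteroids by hydroxylation, stood at 1899 and 2664 normalized counts in RiD rapamycin, 799 and 982 in RiD brassinolide and 212 and 322 in RiD mock, a change by limma of 3.10 ± 0.27 (SE) in RiD rapamycin (adjusted p = 0.000196) and of 1.76 ± 0.27 in RiD brassinolide (adjusted p = 0.00733, and 0.0529 without RiD brassinolide 2). SOB7, another P450 gene among the 10, rose by 1.54 ± 0.15 in RiD rapamycin (adjusted p = 0.000285 by limma), and BEN1, a reductase-like gene, by 1.05 ± 0.14 (adjusted p = 0.00134 by limma). PIZ, an acyltransferase gene, fell by 2.28 on the log2 scale in RiD rapamycin, to 71.1 and 102, against 408 and 425 in RiD mock (adjusted p = 0.000134 by limma), and stood at 536 and 539 in RiD brassinolide. PIZ and BAS1 thus moved in opposite directions under rapamycin. The block called 5 higher and 2 lower in RiD rapamycin, beside 24.1% of all loci in each direction.

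Most relatives of the members were not called, and neither were most of all loci tested. Of 14 other P450 genes of the same clan, 13 were tested. In RiD rapamycin against RiD mock 2 were called higher and 1 lower, beside 12.3% and 9.72% of all loci. The median log2 change of the 13 was 0.17. CYP716A1, a triterpenoid oxidase gene, stood at 167 and 233 normalized counts in RiD rapamycin, 37.1 and 39.5 in RiD brassinolide and 15.5 and 17.6 in RiD mock, and changed by 3.50 ± 0.26 (SE) in RiD rapamycin (adjusted p = 9.70e-05 by limma). CYP708A1 stood at 29.2 and 33.7 in RiD rapamycin, against 0.80 and 2.58 in RiD mock, around the level of 3 reads, a fitted change of 3.67 ± 0.54 (adjusted p = 0.00212 by limma). CYP87A2 stood at 39.0 and 40.4 in RiD rapamycin, 14.5 and 20.1 in RiD brassinolide and 89.6 and 96.8 in RiD mock, and its change of -1.21 ± 0.24 in RiD rapamycin (adjusted p = 0.00853 by limma) was not called without RiD mock 1 (adjusted p = 0.0582). Of 4 relatives of DET2, 3 were tested. In RiD rapamycin or RiD brassinolide against RiD mock 0 were called by limma, with 1 and 0 at an unadjusted p under 0.05. The block called 1 higher and 1 lower in RiD rapamycin, beside 24.1% of all loci in each direction.

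Of 15 transcription factor genes listed as acting on the synthesis genes, 13 were tested. In RiD rapamycin against RiD mock 1 was called higher and 2 lower, beside 12.3% and 9.72% of all loci. The median log2 change of the 13 was 0.36. Without any 1 of the Col-0 libraries 2 were called higher. BEH2, a member of the BZR1 family, stood at 490 and 609 normalized counts in RiD rapamycin, 2423 and 3644 in RiD brassinolide and 5106 and 6272 in RiD mock, a change by limma of -3.37 ± 0.26 (SE) in RiD rapamycin (adjusted p = 0.000104). BEE1, a basic helix-loop-helix factor of the brassinosteroid response, rose to 1316 and 1336 in RiD rapamycin, against 264 and 325 in RiD mock (2.18 ± 0.16, adjusted p = 8.14e-05 by limma). BEH1 changed by -0.79 ± 0.21 (adjusted p = 0.0282 by limma), a call lost without any 1 of the RiD mock and RiD rapamycin libraries (adjusted p = 0.0552 to 0.138). TCP1 and CES, the pair not tested, were listed at 0 in all libraries. With the replicate number as a block 8 of the 13 were called higher and 3 lower in RiD rapamycin. The block called 24.1% of all loci in each direction there. The receptor genes were not called: BRI1 differed by -0.25 ± 0.30 and BAK1 by 0.23 ± 0.13 (adjusted p = 0.626 and 0.252 by limma), although the block called BAK1 (adjusted p = 0.0337).

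**Figure D5:**
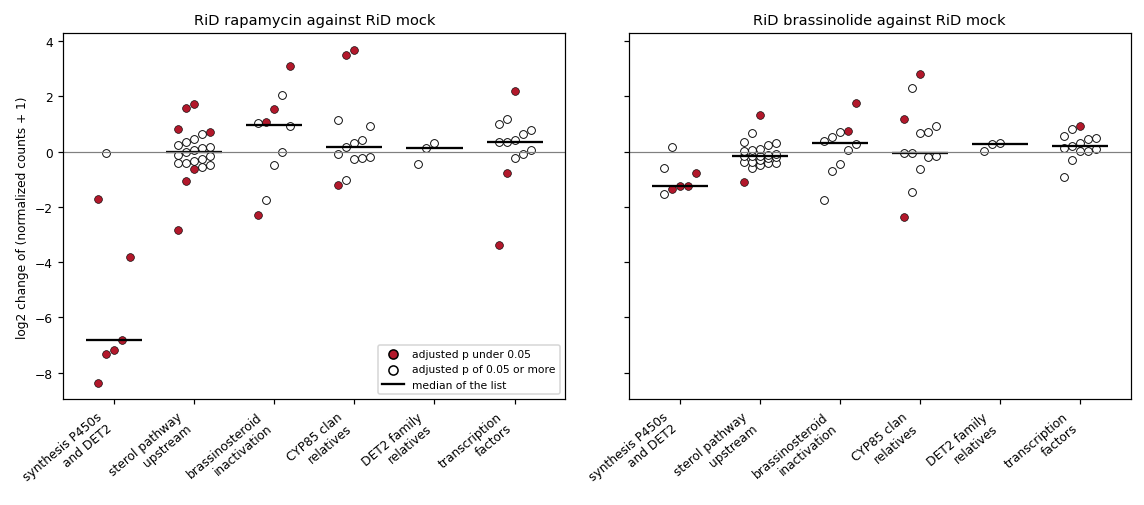
Log2 change of normalized counts + 1 (vertical axis) of each tested gene of 6 lists along the horizontal axis, in RiD rapamycin against RiD mock on the left and RiD brassinolide against RiD mock on the right, with filled points for an adjusted p under 0.05 by limma and a line at each list's median. The median of the synthesis genes is -6.84 for rapamycin and -1.24 for brassinolide, and the medians of the other lists lie between -0.03 and 0.97 for rapamycin.

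Markers of root, shoot and epidermis were read in the same groups. The summed level of 7 root markers was 6023 to 6124 normalized counts in RiD rapamycin, 3930 to 4030 in RiD brassinolide, 1584 to 1988 in RiD mock, 1858 to 2103 in Col-0 rapamycin and 1846 to 2295 in Col-0 mock, with no marker at 0 in a group except EXPA7 in RiD brassinolide. CASP1 and CASP2 of the endodermis carried nearly all of that sum, with means of 4511 and 1554 in RiD rapamycin, against 1215 and 452 in RiD mock. The other 5 markers had means of 0.38 to 4.07 in RiD rapamycin, against 3.53 to 35.6 in RiD mock. In RiD rapamycin against RiD mock 2 of the 7, CASP1 and CASP2, were called higher and 4 lower, beside 12.3% and 9.72% of loci. Among the lower was RHD6 of root hair cells, at 1.53 and 2.78 in RiD rapamycin, against 25.8 and 36.8 in RiD mock. In RiD brassinolide against RiD mock 2 root markers were called higher and 4 lower as well, beside 4.63% and 2.13% of all loci. With the RiD libraries alone in the fit, 2 were higher in either comparison, while 3 were lower with rapamycin and 2 with brassinolide. The sum of 6 shoot markers was 120352 to 165888 in RiD rapamycin, 172235 to 177672 in RiD brassinolide and 208469 to 258525 in RiD mock, with 1 marker called higher and 2 lower in RiD rapamycin and 0 called in RiD brassinolide (2 at an unadjusted p under 0.05). In the fit with the replicate number as a block 1 was higher and 5 lower in RiD rapamycin, and 1 higher and 3 lower in RiD brassinolide, while scaling to equal library totals gave 0 higher and 5 lower in RiD rapamycin. Without RiD mock 1 or either RiD rapamycin library 0 were called higher there, and without RiD rapamycin 1 the number lower was 4. The sum of 2 epidermis markers was 10031 to 13781 in RiD rapamycin, 8634 to 12587 in RiD brassinolide and 6698 to 8567 in RiD mock, with 1 called higher in RiD rapamycin, a call lost without RiD mock 1 or RiD rapamycin 2 (adjusted p = 0.119 and 0.129 by limma), and 0 in RiD brassinolide, where 0 were at an unadjusted p under 0.05. The block called 2 higher in RiD rapamycin and 1 in RiD brassinolide. With it, 24.1% of all loci were called in each direction in RiD rapamycin. In RiD brassinolide it called 14.8% of all loci higher and 12.8% lower. The part of these tissues in the falls of the P450 genes was not tested.

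The patterns of the 7 genes over the 10 libraries were compared with those of all 16874 loci with a mean of at least 50 normalized counts, as the root mean square difference of centred log2 values. DWF4 and BR6OX1 were 0.32 apart, which made DWF4 the nearest of all loci to BR6OX1 and BR6OX1 the second nearest to DWF4, and BR6OX1 was at rank 3 from BR6OX2. The nearest of all loci to CYP90D1 was DWF4, at 0.46. CPD stood apart from these, with ROT3 as its nearest member at rank 197, and its nearest locus was ATSBT5.2, a subtilase gene, at 0.09, ahead of TSA1 at 0.19 and BEH2 at 0.21. ROT3 was nearest to LAX3, an auxin influx carrier gene, at 0.14. The loci nearest to DWF4 outside the 7 genes were AT2G37030, CLE2 and IDL3, that nearest to BR6OX1 was MYB55, that nearest to BR6OX2 was ACS11, an ethylene synthesis gene, and AT2G37030 was also the nearest to CYP90D1 outside the 7. AT2G37030 stood at a mean of 0 in RiD rapamycin, 43.8 in RiD brassinolide and 96.3 in RiD mock. The RiD rapamycin means of IDL3, CLE2 and ACS11 were 0, 0.76 and 0.70, and BR6OX1 and CYP90D1 rested there on 3 reads and 1 read. Distances and ranks that involve any of these genes therefore depend on the added 1. Among the 10 loci nearest to each gene, 2 members were found for DWF4, 3 each for BR6OX1, BR6OX2 and CYP90D1, and 0 for CPD, ROT3 and DET2.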

How the data were processed

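PolyA RNA of whole seedlings was prepared with the TruSeq Stranded mRNA kit, per the labels' protocols, in 10 libraries of 5 groups. The authors deposited a signal per transcript, in normalized counts. Salmon and DESeq2 were used, per the submitters' processing notes. Not given in the sources used here are their versions, the build, the annotation and whether counting used strand. Values of 40812 transcripts were summed to 32753 loci (5880 with several transcripts). Symbols, coordinates, lengths and sequences came from RefSeq TAIR10.1, in which 705 loci had no row.

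All groups entered a single limma fit (3.58.1, R 4.3.3; trend and robust moderation) of log2(value + 1) on loci with a value of at least 1 in at least 2 libraries, with 5 residual degrees of freedom. A call is a Benjamini-Hochberg adjusted p under 0.05 over 23285 loci. The fit was also run on simulated data, which held no effect of the replicate number. The labels do not say what a replicate number stands for; the numbers were taken to pair the libraries from the correlation of deviations, 0.3201 to 0.5112 in 10 pairs of groups, decided before calls were compared, and the fit with the number as a block is the alternative. In all 20 alternatives were run. A test on recovered reads was not run, since steps of higher values vary between transcripts; in the low values, 78.6% to 99.7% were whole within 0.1 reads. Read ratios carry exact 95% intervals.

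The 7 members and the lists were chosen with earlier results of these data known. Named were all 7 members, BRI1, BAK1, up to 4 called loci per list with the largest change in RiD rapamycin against RiD mock, and the nearest loci by pattern. HMG1, SQE1 and FK and, of the markers, CASP1, CASP2, RHD6 and EXPA7 were named after their values were seen. Proteins were not compared here. Statistics used Python 3.11.15 with numpy 2.4.6, pandas 2.3.3 and scipy 1.17.1, and plots matplotlib 3.10.9.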

Additional observations from a re-analysis of the deposited data

Results flagged for a closer look

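The response to rapamycin differed between the RiD line and Col-0 for 6 of the 7 genes by the test of the difference in limma, beside 10.1% of all loci called and 3.56% called lower. The response of RiD minus that of Col-0 was -6.79 on the log2 scale for DWF4, -3.80 for CPD, -7.46 for BR6OX1, -8.21 for BR6OX2 and -7.00 for CYP90D1. For ROT3 it was -1.58, with an adjusted p of 0.0430 by limma, and 9 of the 10 libraries ended that call when left out in turn, while the fit with the replicate number as a block held it (adjusted p = 7.87e-07).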

How the results depend on the processing

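Over the 959 values of single members under an alternative, 910 kept their direction and their side of the threshold, 20 kept the direction but lost the call, 6 kept it and gained the call, and 23 changed sign, all of them small differences called in neither fit. The 6 P450 genes were called lower in RiD rapamycin against RiD mock under all 20 alternatives, scaling to equal library totals included, which shifted the median of all loci by -0.14 and gave 2473 loci called higher and 3218 lower, where the main scaling gave 2857 and 2263. For that comparison the members called numbered 6 without any 1 library, and 5 for RiD rapamycin against RiD brassinolide. In RiD brassinolide against RiD mock they ranged from 2 to 5 without 1 library, with 2 without RiD mock 2 or RiD brassinolide 1. They numbered 3 with the RiD libraries alone in the fit or with the highest transcript of each locus, and 6 with the replicate number as a block, which also called ROT3 in RiD rapamycin against RiD brassinolide and changed no other member's call. For the difference between the lines they ranged from 5 to 6 without 1 library and were 5 with the highest transcript alone, where ROT3 had an adjusted p of 0.0503 by limma. A lone library left in a group is assumed to vary like the others.

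Of the 23 changes of sign, 22 came from leaving out 1 library, over which the log2 differences ranged as follows. DET2 ranged from -0.37 to 0.26 in RiD rapamycin against RiD mock, -0.15 to 0.47 in RiD brassinolide against RiD mock, -0.44 to 0.010 in RiD rapamycin against RiD brassinolide, -0.40 to 0.049 in RiD rapamycin against Col-0 rapamycin, -0.43 to 0.20 for the difference between the lines, -0.019 to 0.14 in Col-0 rapamycin against Col-0 mock and -0.37 to 0.25 in RiD mock against Col-0 mock. In Col-0 rapamycin against Col-0 mock, DWF4 ranged from -0.19 to 0.10, CPD from -0.13 to 0.086, ROT3 from -0.38 to 0.064 and CYP90D1 from -0.35 to 0.012. In RiD mock against Col-0 mock, DWF4 ranged from -0.18 to 0.10, BR6OX2 from -0.14 to 0.13, ROT3 from -0.28 to 0.13 and CYP90D1 from -0.21 to 0.26. The remaining one was BR6OX1 in that comparison, at 0.017 with the highest transcript alone.

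Loci called with the block numbered 11215 for RiD rapamycin against RiD mock (5120 without it), 6424 for RiD brassinolide against RiD mock (1575), 4650 for RiD rapamycin against RiD brassinolide (596), 12211 for RiD rapamycin against Col-0 rapamycin (6143) and 7893 for the difference between the lines (2341). Without 1 library these counts ranged from 2929 to 4672, 478 to 1320, 113 to 431, 3423 to 5865 and 1220 to 1890, in that order. With the RiD libraries alone, 955 were called in RiD brassinolide against RiD mock and 194 in RiD rapamycin against RiD brassinolide. The cause was not tested. In the wider promoter window, chosen after the positions were seen, 4 members held CGTGCG or CGTGTG, against 0 in the planned windows. Depth limits BR6OX1 and CYP90D1 in RiD rapamycin, where 3 reads and 1 read set the level.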
